A study of Homo sapiens with 4 samples.

Results

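The genes of prostaglandin E2 (PGE2) synthesis and signalling were examined in the RNA sequencing of 2 human pancreatic cancer cell lines, SW1990 and PANC-1, each without radiation or after 10 Gy of X-rays. The set was chosen by gene name and held 10 genes, PLA2G4A, PLA2G6, PTGS1, PTGS2, PTGES, PTGES2, PTGES3, PTGER2, PTGER4 and HPGD, all of which were found among the 58174 annotated genes of the deposited table. The question behind the radiation libraries was which transcripts change in irradiated, dying tumor cells, which the study also examined as a source of PGE2. There were 4 groups with 1 library each, namely unirradiated SW1990 cells, SW1990 cells given 10 Gy, unirradiated PANC-1 cells and PANC-1 cells given 10 Gy. The lines were grown in different media, both with serum, so the culture medium cannot be told apart from the cell line. The time between radiation and RNA extraction is not given in the sources used here.

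PGE2 is made in steps. Phospholipases A2 free arachidonic acid from membrane lipids, the cyclooxygenases PTGS1 (COX-1) and PTGS2 (COX-2) turn it into prostaglandin H2, and a terminal PGE synthase converts this to PGE2. PGE2 leaves the cell and acts on G protein-coupled receptors, of which EP2 (PTGER2) and EP4 (PTGER4) raise cyclic AMP, and it is inactivated by the dehydrogenase HPGD. COX-2 is the inducible cyclooxygenase and the one most often linked to epithelial tumors, and both cyclooxygenases are the targets of aspirin.

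For each gene and library the deposited table gives a read count and an FPKM value, which is the level per transcript length and library size. Levels of different genes are therefore compared in FPKM, while changes of 1 gene between libraries are given as ratios of counts, scaled by the TMM method. The counts summed to 17939210 and 18388969 in unirradiated and irradiated SW1990 cells, and to 23451153 and 20154644 in unirradiated and irradiated PANC-1 cells. A floor of 3 counts, the most that a count of 0 allows, corresponded to a CPM (the count scaled to a common library size) between 0.129 and 0.168. With 1 library per group no difference has a replicate check. Intervals given for a change are exact 95% intervals of the counts and cover counting error only. In each library, between 67.4% and 68.6% of the counts from 2 to 9 were even numbers, which would arise if both reads of a pair had been counted, so these intervals may be too narrow. In bulk RNA, fewer cells that express a gene and less RNA per cell cannot be told apart.

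The upstream regions of 3 genes are shown, those of PTGS2 and PTGES, which stood higher in SW1990 cells, and that of PTGER4, which stood higher in PANC-1 cells. Each is the run of 250 bases before the transcription start in RefSeq (GRCh38.p14), read 5′ to 3′ on the strand of the gene. Capitals mark matches, on either strand, to TATAAA (the TATA box), CCAAT (the box bound by NF-Y), GGGCGG (GC box, the Sp1 motif), TGACG (the core of the cyclic AMP response element) and TTGCGNAA (the C/EBP motif). PTGS2 lies at chr1:186680424-186680673 on the minus strand, PTGES at chr9:129753043-129753292 on the minus strand and PTGER4 at chr5:40679665-40679914 on the plus strand.
PTGS2: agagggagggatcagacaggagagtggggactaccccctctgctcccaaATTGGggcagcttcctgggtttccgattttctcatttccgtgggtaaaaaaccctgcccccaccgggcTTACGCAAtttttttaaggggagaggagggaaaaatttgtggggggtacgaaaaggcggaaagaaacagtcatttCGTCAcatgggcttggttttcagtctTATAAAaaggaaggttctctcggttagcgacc
PTGES: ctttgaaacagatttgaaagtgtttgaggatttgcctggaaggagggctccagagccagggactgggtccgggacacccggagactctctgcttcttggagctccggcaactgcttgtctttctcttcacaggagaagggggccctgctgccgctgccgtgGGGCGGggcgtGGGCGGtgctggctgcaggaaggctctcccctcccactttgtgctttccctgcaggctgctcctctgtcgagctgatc
PTGER4: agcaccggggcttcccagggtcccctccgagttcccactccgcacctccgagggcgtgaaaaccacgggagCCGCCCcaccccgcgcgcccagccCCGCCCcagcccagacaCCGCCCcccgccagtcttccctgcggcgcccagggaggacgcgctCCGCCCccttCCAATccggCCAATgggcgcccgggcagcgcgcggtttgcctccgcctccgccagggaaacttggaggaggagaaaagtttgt

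The PTGS2 region held 1 TATA box, which began 32 bases before the start, 1 TGACG at 58 bases, 1 C/EBP match at 133 bases and 1 CCAAT box at 201 bases, and no GC box. The PTGES region held 2 GC boxes and none of the other motifs. The PTGER4 region held 4 GC boxes and 2 CCAAT boxes, and its GC content was 72.8%, against 61.2% for PTGES and 50.4% for PTGS2. Over 35116 RefSeq regions of the same length, the TATA box was found in 10.7%, the CCAAT box in 32.0%, TGACG in 21.2%, the GC box in 42.6% and the C/EBP motif in 0.8%. The 10 genes had 14 such regions, because some have several starts, and 11 of the 14 held a GC box. These matches are a description of the letters and not of binding.

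The clearest pattern was a difference between the lines. SW1990 cells held the higher levels of the cyclooxygenases, of PTGES, of PLA2G4A and PLA2G6 and of HPGD, while PANC-1 cells held the higher level of the receptor gene PTGER4. All 4 libraries were fitted together, with radiation as the second term, by the quasi-likelihood test of edgeR, and p-values were adjusted over all genes by the Benjamini-Hochberg method. The fit had 1 residual degree of freedom. In it, 8 of 9 members fitted had an adjusted p-value below 0.05, 7 higher in SW1990 and 1 higher in PANC-1 cells. Of all 18244 genes fitted, 44.4% passed the same limit, 21.6% higher in SW1990 and 22.8% higher in PANC-1 cells, and 53.3% had an unadjusted p-value below 0.05. PTGS1, PTGS2, PLA2G4A and HPGD passed the filter on low counts only through their SW1990 libraries, where they are high, so the count of members is a description of those fitted and not of the set. PTGER2 had too few counts to be fitted. The samples within a line were the unirradiated and the irradiated library, so the test measures the difference against the spread left between these libraries.

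**Figure D1:**
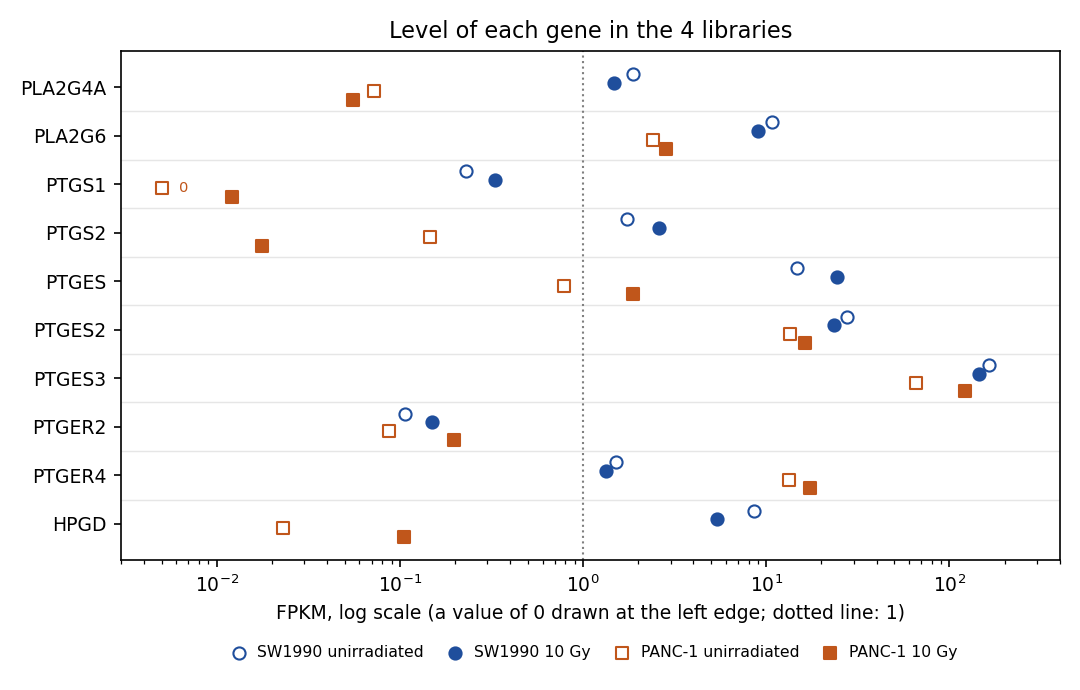
FPKM of the 10 genes (log axis) in each of the 4 libraries, with open symbols for unirradiated and filled symbols for irradiated cells, circles for SW1990 and squares for PANC-1. The circles of PTGS2, PTGES, PLA2G4A and HPGD lie right of the squares, and those of PTGER4 lie left of them.

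Among the enzymes that free arachidonic acid, PLA2G4A, the calcium-dependent cytosolic phospholipase A2 with a preference for arachidonate, had 118 and 94 counts in unirradiated and irradiated SW1990 cells and 6 and 4 counts in PANC-1 cells. Its FPKM was 1.86 and 1.47 in SW1990 and 0.0721 and 0.0556 in PANC-1 cells. In the quasi-likelihood fit the difference was 22.4-fold (adjusted p = 0.002). PLA2G6, the calcium-independent phospholipase A2, had an FPKM of 10.7 and 8.96 in SW1990 and 2.40 and 2.84 in PANC-1 cells, from 262, 202, 75 and 113 counts, a fitted difference of 2.67-fold (adjusted p = 0.0312), a call that was lost without the filter on low counts. PLA2G6 overlaps MAFF over 4924 bases on the opposite strand, and MAFF had 308, 477, 377 and 244 counts in the same order. Whether the counting used strand is not stated, so reads of such pairs may not have been separated.

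The cyclooxygenase genes were low in both lines. PTGS1, the constitutive cyclooxygenase, had 26 and 39 counts in unirradiated and irradiated SW1990 cells and 0 and 2 counts in PANC-1 cells, and its FPKM stayed below 1 in all 4 libraries. Without radiation the 26 counts of PTGS1 in SW1990 cells were at least 9.67-fold above the floor of 3 counts per library in PANC-1 cells, with the 26 counts taken as measured, and the lower limit of the counting interval of the log2 ratio was 2.87. The adjusted p-value of the fit was 0.0124, a call that was lost with limma on FPKM values. PTGS2 had 153 and 255 counts in SW1990 cells and 14 and 2 counts in PANC-1 cells. These correspond to an FPKM of 1.74 and 2.61 in SW1990 and of 0.146 and 0.0177 in PANC-1 cells. In the quasi-likelihood fit the difference was 28-fold (adjusted p = 0.00752). The ratio was 12.2-fold in the unirradiated pair and 132-fold in the irradiated pair, where the PANC-1 library had 2 counts and the log2 ratio of 7.04 had an interval from 5.17 to 10.10. Even in SW1990 cells PTGS2 was among the weakly expressed genes, above 12.2% (unirradiated) and 20.2% (irradiated) of the genes that reached an FPKM of 1.

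The terminal PGE synthases differed in level and in how far the lines were apart. PTGES3, the cytosolic PGE synthase, which is also the HSP90 co-chaperone p23, was the most abundant member in every library. Its FPKM was 165 and 145 in SW1990 and 65.4 and 121 in PANC-1 cells, above 93.6% to 98.1% of the genes that reached an FPKM of 1 in a library. The counts of PTGES3 were 5701, 4864, 3447 and 4718, and the difference between the lines did not pass the test (1.40-fold, adjusted p = 0.134). PTGES2, a membrane-associated synthase, had an FPKM of 27.7 and 23.4 in SW1990 and 13.4 and 16.3 in PANC-1 cells and a fitted difference of 1.46-fold (adjusted p = 0.0479), a call that was likewise lost without the filter on low counts. PTGES, the inducible microsomal synthase that is often coupled to COX-2, stood far apart from these. It had 574 and 968 counts in SW1990 and 41 and 85 counts in PANC-1 cells, or an FPKM of 14.7 and 24.3 against 0.782 and 1.88. Its difference in the quasi-likelihood fit was 13.4-fold (adjusted p = 0.000535), with 15.6-fold in the unirradiated and 11.8-fold in the irradiated pair.

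Of the receptor genes, PTGER4 was higher in PANC-1 cells and PTGER2 showed no order. PTGER4, which codes for EP4, had 52 and 57 counts in SW1990 and 535 and 599 counts in PANC-1 cells, an FPKM of 1.52 and 1.34 against 13.3 and 17.3. PANC-1 cells were the higher, by 9.67-fold in the quasi-likelihood fit (adjusted p = 0.000822), 9.22-fold in the unirradiated and 10.2-fold in the irradiated pair. PTGER4 lies inside TTC33, which runs on the opposite strand and had 140, 89, 249 and 226 counts. PTGER2, which codes for EP2, had 6, 8, 6 and 12 counts and an FPKM between 0.0870 and 0.198, with no order between the lines that counting error could resolve. The log2 difference was 0.16 (interval -1.75 to 2.06) without and -0.54 (-2.03 to 0.87) with radiation.

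HPGD, the 15-hydroxyprostaglandin dehydrogenase that opens the breakdown of PGE2, had 239 and 269 counts in SW1990 and 2 and 6 counts in PANC-1 cells. Its FPKM was 8.52 and 5.39 in SW1990 and 0.0228 and 0.105 in PANC-1 cells, a fitted difference of 67.4-fold (adjusted p = 0.00101). In the irradiated pair the ratio was 46.4-fold. In the unirradiated pair, where the PANC-1 library had 2 counts, the log2 ratio was 7.06 (interval 5.19 to 10.11).

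**Figure D2:**
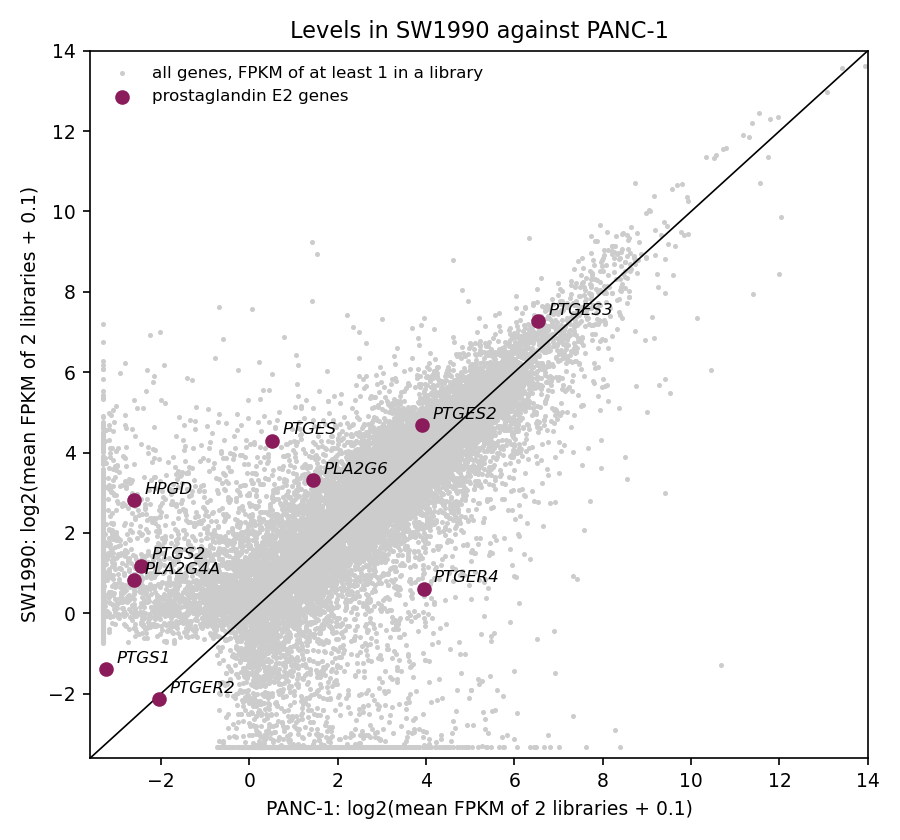
Level of every gene that reached an FPKM of 1 in any library (grey) and of the 10 PGE2 genes (purple), as log2 of the mean FPKM of the unirradiated and irradiated library plus 0.1, in PANC-1 (horizontal) and SW1990 cells (vertical). HPGD, PTGS2, PLA2G4A and PTGES lie above the line of equal levels, PTGER4 lies below it, and PTGES3 and PTGES2 lie near it.

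The second comparison asked what changed with radiation within each line. A call needed both a q-value under 0.001 and a change of more than 2-fold. The q-values came from edgeR's exactTest with dispersion set to 0, adjusted over all genes that reached an FPKM of 1 in either library of the pair. This test compares the 2 libraries and not the conditions. In SW1990 cells 0 of 8 members tested were called, where 4.13% of all 15731 genes tested were called, 2.26% higher and 1.88% lower. In PANC-1 cells 1 of 5 members tested was called, PTGES, where 4.7% of all 15159 genes tested were called, 2.37% higher and 2.32% lower. PTGES entered the PANC-1 test only through the irradiated library, where its FPKM was 1.88 against 0.782 without radiation, and it was the 1 member called of 10 when no filter was set, where 3.48% of all genes were called. With edgeR's quasi-likelihood fit of both lines together, 0 of 9 members passed an adjusted p-value of 0.05, as did 0 of 18244 genes, while 870 genes (4.77%) and 1 member, PTGES, had an unadjusted p-value below 0.05. DESeq2's Wald test on the same libraries called 312 genes (1.71%) and, among the members, PTGES.

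PTGES was the member called in PANC-1 cells. In SW1990 cells it had 574 and 968 counts before and after radiation, a log2 change of 0.75 (interval 0.60 to 0.90, 1.68-fold, q = 4.9e-22 by edgeR's exactTest), which stayed under the fold limit. In PANC-1 cells PTGES rose from 41 to 85 counts, a log2 change of 1.18 (interval 0.63 to 1.76, 2.27-fold, q = 5.8e-05 by edgeR's exactTest). The irradiated library was the higher one in both lines, and the FPKM values gave log2 changes of 0.73 and 1.27. Over both lines the log2 change was 0.95 (unadjusted p = 0.00786, adjusted p = 0.944 by edgeR's quasi-likelihood test). The call in PANC-1 cells was lost when a biological coefficient of variation of 0.2 was assumed or when the counts were halved.

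PTGS2 did not follow PTGES in both lines. In the SW1990 libraries its counts were 153 and then 255, a log2 change of 0.73 (interval 0.44 to 1.03, 1.66-fold, q = 3.7e-06 by edgeR's exactTest), again under the fold limit. In PANC-1 cells it had 14 and 2 counts, a log2 ratio of -2.68 (interval -5.86 to -0.55), and it was not tested there because its FPKM was below 1 in both libraries. With the counts halved, the interval in PANC-1 cells ran from -8.17 to 0.28. The study reported a rise of PTGS2 by qPCR and of COX-2 by western blot in both lines, after a lag following radiation. The time after radiation of the libraries used here is not given, so the 2 cannot be set side by side. PTGS1 had 26 and 39 counts in SW1990 cells, a log2 change of 0.58 (interval -0.17 to 1.35), and the 0 and 2 counts in PANC-1 cells allow no ratio.

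**Figure D3:**
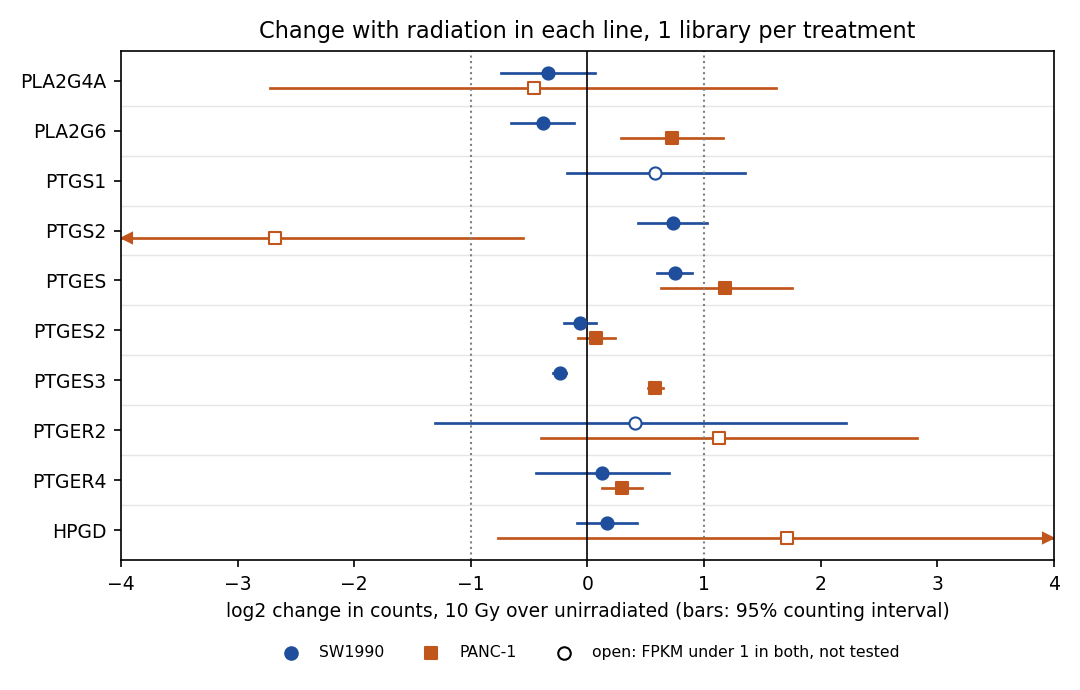
Log2 change in counts from the unirradiated to the irradiated library in SW1990 (blue circles) and PANC-1 cells (orange squares), with 95% counting intervals as bars, arrowheads where a bar leaves the axis, and dotted lines at a fold change of 2. PTGES lies right of 0 in both lines, whereas PTGES3, PLA2G6 and PTGS2 lie on opposite sides of 0.

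The other synthases and the phospholipases showed smaller changes. PTGES3 had a log2 change of -0.24 (interval -0.29 to -0.18) in SW1990 and 0.58 (0.52 to 0.65) in PANC-1 cells, neither of which reached the fold limit. Its intervals lay on opposite sides of 0 in the lines. For PTGES2 the log2 change was -0.06 (interval -0.20 to 0.08) in SW1990 and 0.07 (-0.08 to 0.23) in PANC-1 cells, so counting error alone spanned 0 in both. PLA2G6 had log2 changes of -0.38 (interval -0.65 to -0.11) and 0.72 (0.29 to 1.16), and its partner MAFF had 308 and 477 counts in SW1990 and 377 and 244 counts in PANC-1 cells. PLA2G4A changed by -0.33 (interval -0.74 to 0.07) in SW1990 cells, and the 6 and 4 counts in PANC-1 cells gave -0.45 with an interval from -2.72 to 1.62.

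PTGER4 had a log2 change of 0.13 (interval -0.44 to 0.70) from counts and -0.18 from FPKM values in SW1990 cells. The change was 0.29 (0.12 to 0.46, q = 0.00193 by edgeR's exactTest) in PANC-1 cells and was not called. PTGER2 had too few counts to resolve a change in either line. HPGD depended on the measure. Its counts in SW1990 cells were 239 and 269, a log2 change of 0.16 (interval -0.09 to 0.42), whereas its FPKM was 8.52 and 5.39, a log2 change of -0.66. In PANC-1 cells the 2 and 6 counts of HPGD gave a log2 ratio of 1.72 with an interval from -0.77 to 5.06. No direction is given for HPGD after radiation.

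The wider pathway was described with 10 gene lists around the members. Their median log2 changes with radiation ran from -0.08 to 0.17 in SW1990 and from -0.30 to 0.50 in PANC-1 cells, against -0.0067 and -0.017 over all genes tested, and the median log2 difference between the lines (SW1990 minus PANC-1) was -0.0078 over all genes fitted. Counts and medians of a list cover the genes that passed the filter, some of them through 1 line only. Beside each count of genes that differed between the lines, the share of all genes fitted that did so is given in the order SW1990 higher and PANC-1 higher. Of the list genes named, ACSL5, ADCY7, AHSA1, CBR1, CEBPB, LPCAT2, PDE4A and PTGR2 overlap other genes with counts in these libraries, which leaves their own counts uncertain where the counting did not separate them. Upstream, the list of arachidonate release (phospholipases, the annexin ANXA1 and the enzymes of the endocannabinoid route) held 20 genes, of which 7 were higher in SW1990 and 3 higher in PANC-1 cells among 14 fitted (all genes 21.6% and 22.8%, median log2 difference 1.01). PLA2G2A, a secreted phospholipase A2, had 75 and 61 counts in SW1990 cells and was listed at 0 in both PANC-1 libraries, as was PLA2G4F, with 62 and 102 counts in SW1990 cells. ANXA1, known as an inhibitor of phospholipase A2, had 837 and 1421 counts in SW1990 and 6668 and 4449 counts in PANC-1 cells, 4.64-fold higher in PANC-1 cells (adjusted p = 0.00516). Its ratio was 7.14-fold in the unirradiated and 3.03-fold in the irradiated pair. After radiation 1 of 14 genes tested was called higher and 1 lower in SW1990 cells (all genes 2.26% and 1.88%). In PANC-1 cells 1 of 12 was called higher and 0 lower (all genes 2.37% and 2.32%). MGLL, the lipase that frees arachidonate from 2-arachidonoylglycerol, rose in SW1990 cells from 62 to 172 counts (log2 change 1.47), while in PANC-1 cells its counts were 250 and 131 (log2 change -0.80, not called). PLA2G4B fell in SW1990 cells from 109 to 40 counts, but it shares 10373 bases on the same strand with the readthrough gene JMJD7-PLA2G4B, which makes the call uncertain, and in PANC-1 cells it had 14 and 37 counts (log2 change 1.53, interval 0.61 to 2.53, not called). DAGLA, which makes 2-arachidonoylglycerol, rose in PANC-1 cells from 160 to 365 counts (log2 change 1.32) and had 484 and 562 counts in SW1990 cells. ABHD6 and PLA2G15, the other genes of this list with the largest mean changes, had log2 changes of 0.46 and 0.47 in SW1990 and of 0.95 and 0.57 in PANC-1 cells and were not called.

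In the list of arachidonate storage and synthesis, 3 of 16 genes fitted were higher in SW1990 and 6 in PANC-1 cells (all genes 21.6% and 22.8%, median log2 difference -0.28). ELOVL5 and ELOVL2, the elongases of polyunsaturated fatty acids, were listed at 0 in both SW1990 libraries and had 3888 and 2682 counts and 2258 and 2273 counts in PANC-1 cells. FADS2, a desaturase on the route to arachidonate, had 173 and 109 counts in SW1990 and 2552 and 1565 counts in PANC-1 cells, a 13.5-fold difference (adjusted p = 0.000328). It overlaps FADS1 and FEN1. ACSL5 and ACSL1, which join fatty acids to coenzyme A, stood higher in SW1990 cells, by 28.1-fold (adjusted p = 0.000315) and 7.39-fold (adjusted p = 0.000623). After radiation 0 of 14 genes tested were called in each line (all genes 4.13% in SW1990 and 4.7% in PANC-1 cells). LPCAT2, with log2 changes of 0.27 and 0.65, and FADS2, with -0.67 and -0.58, were among the genes not called. From FPKM values the changes of LPCAT2 were -0.03 in SW1990 and 0.84 in PANC-1 cells.

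**Figure D4:**
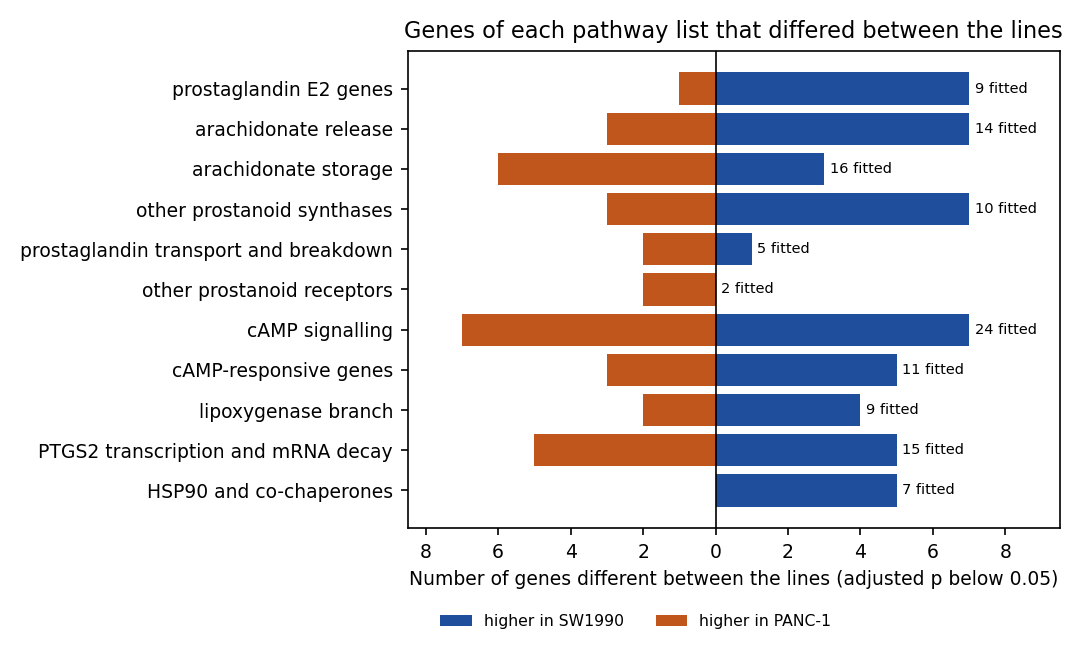
Number of genes in each list that differed between the lines (edgeR's quasi-likelihood test, adjusted p below 0.05), to the right those higher in SW1990 and to the left those higher in PANC-1 cells, with the number fitted beside each bar. The PGE2 genes had 7 to the right and 1 to the left, and arachidonate storage had 3 and 6.

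Among the synthases of other prostanoids, 7 of 10 genes fitted were higher in SW1990 and 3 in PANC-1 cells (all genes 21.6% and 22.8%, median log2 difference 2.54), and AKR1C1, AKR1C2 and AKR1C3 passed the filter only through SW1990 cells. AKR1C1, AKR1C2 and AKR1C3, of which AKR1C3 makes prostaglandin F2, had 115 and 66, 89 and 57, and 64 and 43 counts in SW1990 cells and were listed at 0 in PANC-1 cells. These near-identical genes may share reads, which was not tested. CBR1, a carbonyl reductase that acts on PGE2, was 5.14-fold higher in SW1990 cells (adjusted p = 0.000893), and GSTM3 was 6.58-fold higher (adjusted p = 0.000537). AKR1B1 was 4.84-fold higher in PANC-1 cells (adjusted p = 0.00481). After radiation 0 of 8 genes tested were called in SW1990 (all genes 4.13%) and 0 of 4 in PANC-1 cells (all genes 4.7%). For transport and breakdown (all genes 21.6% and 22.8%), 1 of 5 genes fitted, the exporter ABCC4, was higher in SW1990 cells (1.54-fold, adjusted p = 0.0330), and SLCO3A1 (12.2-fold, adjusted p = 0.000471) and ZADH2 (3.95-fold, adjusted p = 0.000876) were higher in PANC-1 cells, with a median of -0.0040. SLCO2A1, the importer that precedes breakdown by HPGD, had 0, 17, 0 and 0 counts, and PTGR2 had 276, 275, 254 and 246 counts. Of the receptors for other prostanoids and the other EP receptors, 2 of 7 genes could be fitted and both were higher in PANC-1 cells (all genes 22.8%). These were PTGER1 (EP1), with 6, 5, 42 and 21 counts, and the thromboxane receptor TBXA2R, with 0, 6, 72 and 113 counts. PTGDR, PTGDR2, PTGFR and PTGIR were listed at 0 in all 4 libraries, which left PTGER4 as the prostanoid receptor gene with the highest FPKM in both lines.

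Downstream of EP2 and EP4, 7 of 24 genes of the cyclic AMP machinery were higher in SW1990 and 7 higher in PANC-1 cells, near the shares over all genes (21.6% and 22.8%), with a median log2 difference of 0.01. The regulatory subunit gene PRKAR2B had 112 and 115 counts in SW1990 cells and was listed at 0 in PANC-1 cells. The catalytic subunit gene PRKACB had 445 and 478 counts in SW1990 and 7054 and 4462 counts in PANC-1 cells, an 11.3-fold difference (adjusted p = 0.000515), and the phosphodiesterase gene PDE4A was 11-fold higher in PANC-1 cells (adjusted p = 0.000467). After radiation 1 of 21 genes tested was called in PANC-1 cells, near the share over all genes (4.7%), and 0 of 20 in SW1990 cells (4.13%). The gene called was PDE4B, a phosphodiesterase that degrades cyclic AMP and is itself induced by it. It rose in PANC-1 cells from 96 to 211 counts (log2 change 1.27, q = 1.1e-12 by edgeR's exactTest) and had 18 and 38 counts in SW1990 cells. ADCY7, ADCY9 and PDE4D were not called, with log2 changes of 0.32, 0.29 and 0.02 in SW1990 and of 0.94, 0.61 and -0.94 in PANC-1 cells. PDE4D depended on the measure, with log2 changes from FPKM values of 0.42 in SW1990 and -0.09 in PANC-1 cells.

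Of the genes known to respond to cyclic AMP, 5 of 11 fitted were higher in SW1990 and 3 in PANC-1 cells (all genes 21.6% and 22.8%, median log2 difference 0.05). The nuclear receptor genes NR4A3 and NR4A1 stood 27.3-fold (adjusted p = 0.0047) and 13.2-fold (adjusted p = 0.00123) higher in SW1990 cells, whereas the phosphatase gene DUSP1 was 12.6-fold higher in PANC-1 cells (adjusted p = 0.000328). NR4A3 had 4 and 23 counts in PANC-1 cells, and its ratio was 90.6-fold in the unirradiated and 13.4-fold in the irradiated pair. After radiation 1 of 7 genes tested was called higher and 1 lower in PANC-1 cells (all genes 2.37% and 2.32%). Of these 7, 3 had log2 changes above 0 and 4 below. NR4A1, NR4A2, NR4A3 and FOS were not tested there, because their FPKM was below 1 in both libraries. Their log2 changes in PANC-1 cells were 1.34, 1.02, 2.65 and 1.72, from 22 and 51, 20 and 37, 4 and 23, and 11 and 33 counts. With halved counts the interval of NR4A2 spanned 0. In SW1990 cells the 4 changes were 0.53, 0.22, -0.13 and -0.37. In SW1990 cells 0 of 10 were called (all genes 4.13%), and the difference between the lines was not tested. FOSB rose from 43 to 110 counts (log2 change 1.49) and overlaps ERCC1 on the opposite strand, and AREG, the EGF receptor ligand amphiregulin, fell from 874 to 343 counts (log2 change -1.22). In SW1990 cells AREG had 2259 and 1977 counts. VEGFA had 3170 and 1641 counts in PANC-1 cells (log2 change -0.82) and -0.45 in SW1990 cells, and CREM had -0.30 and -0.16, without a call.

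Of the regulators of PTGS2 transcription and mRNA decay, 5 of 15 genes fitted were higher in SW1990 and 5 higher in PANC-1 cells (all genes 21.6% and 22.8%, median log2 difference 0.30). CELF2, an RNA-binding protein that binds the COX-2 mRNA, had 216 and 321 counts in SW1990 and 0 and 2 counts in PANC-1 cells. ZFP36 (tristetraprolin), which promotes decay of AU-rich mRNAs such as that of COX-2, was 5.77-fold higher in PANC-1 cells (adjusted p = 0.000722), and the transcription factor gene EGR1 was 6.48-fold higher in SW1990 cells (adjusted p = 0.0106). The ratio of EGR1 was 13.4-fold in the unirradiated and 3.46-fold in the irradiated pair. After radiation 3 of 14 genes tested were called in PANC-1 cells (4.7% of all genes) and 0 of 15 in SW1990 cells (4.13% of all genes). EGR1 rose from 59 to 299 counts (log2 change 2.47), JUN fell from 9220 to 3360 counts (log2 change -1.33) and CEBPB, which codes for C/EBP beta, fell from 1394 to 605 counts (log2 change -1.07). In SW1990 cells the same genes had log2 changes of 0.49, -0.15 and 0.70, and ZFP36 had 0.52 there and 0.98 in PANC-1 cells without a call. PACERR, the antisense RNA next to PTGS2 and the only gene of the table in the 148525 bases between PTGS2 and PLA2G4A, had 4, 13, 0 and 0 counts.

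Of HSP90 and the co-chaperones that act with PTGES3, 5 of 7 genes were higher in SW1990 cells and 0 higher in PANC-1 cells (all genes 21.6% and 22.8%, median log2 difference 0.89), with HSP90AA1 at 2.90-fold (adjusted p = 0.00178), FKBP4 at 2.90-fold (adjusted p = 0.00166) and FKBP5 at 2.57-fold (adjusted p = 0.00432). The co-chaperone gene AHSA1 was 1.47-fold higher (adjusted p = 0.0450). After radiation 0 of 7 genes tested were called in each line (all genes 4.13% in SW1990 and 4.7% in PANC-1 cells). In the lipoxygenase branch, which competes for arachidonate, 4 of 9 genes fitted were higher in SW1990 and 2 in PANC-1 cells (all genes 21.6% and 22.8%, median log2 difference 0.53). ALOX5AP, the protein that presents arachidonate to 5-lipoxygenase, was listed at 0 in SW1990 cells and had 32 and 36 counts in PANC-1 cells, and the soluble epoxide hydrolase gene EPHX2 was 13.7-fold higher in SW1990 cells (adjusted p = 0.00405). EPHX2 had 9 and 29 counts in PANC-1 cells, and its ratio was 26.3-fold in the unirradiated and 8.45-fold in the irradiated pair. After radiation 1 of 5 genes tested was called in SW1990 cells (all genes 4.13%) and 0 of 5 in PANC-1 cells (all genes 4.7%). ALOXE3, an epidermal lipoxygenase, rose in SW1990 cells from 77 to 163 counts (log2 change 1.08) and had 463 and 241 counts in PANC-1 cells. The leukotriene B4 receptor genes LTB4R and LTB4R2, which overlap each other, had log2 changes of 0.45 and 0.04 in SW1990 and of -0.0034 and 0.22 in PANC-1 cells. LTB4R2 also shares 3391 bases on the same strand with NOP9, which had 3052, 2852, 1340 and 1427 counts, so the counts of LTB4R2 are uncertain.

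The genes whose pattern was most like that of PTGS2 were chosen by the distance between log2(CPM + 1) values centred over the 4 libraries, among 17661 genes that reached an FPKM of 1 in any library. Of the 5 nearest, 4 are given here, the trypsinogen gene PRSS3 (0.268), ARRDC4 (0.278), the glucose transporter gene SLC2A1 (0.292) and CGREF1 (0.32). SLC2A1 had 8391, 11056, 1319 and 974 counts in unirradiated and irradiated SW1990 and unirradiated and irradiated PANC-1 cells. These 4 genes were higher in SW1990 than in PANC-1 cells, higher in the irradiated SW1990 library and lower in the irradiated PANC-1 library, which is the pattern they were chosen for. CGREF1 overlaps KHK on the opposite strand.

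The labels of both lines as pancreatic cancer cells were set against marker genes. The epithelial keratins KRT8, KRT18 and KRT19 were high in every library, KRT8 with 38674 and 53301 counts in SW1990 and 28483 and 27779 counts in PANC-1 cells. EPCAM and CDH1 had 7348 and 9906 counts in unirradiated SW1990 cells and 108 and 59 counts in unirradiated PANC-1 cells. The mesenchymal gene VIM had 17 and 0 counts in SW1990 and 82406 and 75166 counts in PANC-1 cells, and the summed FPKM of the 4 mesenchymal markers was 0.94, 1.49, 1647 and 1670. These epithelial and mesenchymal markers moved with the difference between the lines in the PGE2 genes, and their part in it was not tested. With radiation, all 5 epithelial markers had log2 changes above 0 in both lines, with medians of 0.46 in SW1990 and 0.20 in PANC-1 cells. Of these, 0 were called in either line, and CDH1 had 9906 and 14345 counts in SW1990 cells (log2 change 0.53). ZEB1 was called higher in irradiated SW1990 cells (14 and 66 counts), while VIM had 17 and 0 counts, FN1 had 0 and 25 counts and CDH2 had 0 and 4 counts. In PANC-1 cells FN1 had 8 and 9 counts and CDH2 had 333 and 301 counts, and VIM was the most abundant gene of the list there. Of 4 leukocyte markers, PTPRC, CD3E and LYZ had at most 2 counts in any library, and CD68 had 31, 37, 967 and 583 counts, with a summed FPKM of these 4 of 0.844, 0.938, 18.9 and 13.9. Of the 7 fibroblast and endothelial markers, COL1A2 and PDGFRA were at 0 in all libraries, COL1A1 had 103, 165, 965 and 1315 counts, and PDGFRB was called lower in irradiated SW1990 cells (129 and 63 counts). In the same pair VWF had 14 and 50 counts (log2 change 1.83, interval 0.95 to 2.80), which was not tested because its FPKM was below 1, and COL1A1 had a log2 change of 0.67 (interval 0.31 to 1.04), which was not called. CDH5 had 8 and 0 counts and PECAM1 had 0 and 2 counts there. The 7 genes had a summed FPKM of 3.11, 4.19, 8.45 and 11.2. The acinar markers PRSS1, CPA1, CELA3A and PNLIP had at most 12 counts in any library.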

How the data were processed

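Polyadenylated or rRNA-depleted RNA (the labels name both an mRNA kit and depletion) was sequenced from 4 libraries. Per the labels and methods, the authors trimmed reads with Trimmomatic 0.36, aligned them with HISAT2 2.0 to GRCh38 and deposited FPKM values from StringTie 1.3.3b. The authors also deposited raw counts per gene, with a tool not given in the sources used here. The 1089 rows without a gene held between 0.453% and 0.635% of the counts and were left out.

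Counts were analysed with edgeR 4.0.16 in R 4.3.3, with DESeq2 1.42.0 and limma 3.58.1 as alternatives. In each line, exactTest at dispersion 0 was used on genes that reached an FPKM of 1 in either library, with TMM scaling of the pair, 0 set to 0.01 and a call at q below 0.001 and fold above 2, after the limits the study's methods name. In PANC-1 cells 61 adjusted values below 0 were set to 0. Both lines were fitted with glmQLFit and glmQLFTest (1 residual degree of freedom, common coefficient of variation 0.219) on genes kept by filterByExpr. In simulated data, where 200 genes differed 4-fold, exactTest recovered 173 of 200 among 15728 genes in SW1990 and 179 among 15156 in PANC-1 cells, with 0 false calls in each. These pairs were simulated with counting error only, the setting that dispersion 0 assumes. The 0 false calls are therefore no estimate of the false calls in real libraries. The fit recovered 178 for the lines among 17943 genes, with 6 false calls, and 185 for radiation among 17946 genes, with 9.

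The members and lists were chosen with earlier results of these data known. List genes named are up to 3 with the largest difference between the lines among genes that reached an FPKM of 1 in any library, up to 3 with the largest mean change with radiation among genes that reached it in each line, and those called after radiation, 54 in all. A marker gene and a gene with a pattern like that of PTGS2 are not reported here. The lists were compiled by hand. FADS1, FEN1, ERCC1, NOP9, SLCO2A1, JMJD7-PLA2G4B, MAFF, TTC33, PACERR, NR4A2, FOS and the receptor genes at 0 are named beside them, chosen after their values were seen. Alternatives changed the scaling, the filter, the fold limit, the dispersion and the unit. The halved counts were added after the data were seen. Positions are those of RefSeq GRCh38.p14, and sequences come from the RefSeq promoter table.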

Additional observations from a re-analysis of the deposited data

Results flagged for a closer look

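Of 9 members with a log2 change with radiation in both lines, 5 had the same sign and 4 had opposite signs. For 3 of those with opposite signs, the counting intervals left out 0 in both lines. The share of all genes with this pattern was not determined, so the count describes these members only. The difference in log2 change (SW1990 minus PANC-1) was 3.41 for PTGS2, -0.82 for PTGES3 and -1.1 for PLA2G6. With 1 library per group the difference between the lines was not tested. With the counts halved, the intervals left out 0 in both lines for 1 of them, PTGES3. PTGS2 rested on 14 and 2 counts in PANC-1 cells, and PLA2G6 overlaps MAFF on the opposite strand and had a log2 change of 0.23 in PANC-1 cells from FPKM values (pseudocount 0.1).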

How the results depend on the processing

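In SW1990 cells, 2 members (PTGES and PTGS2) in place of 0 were called with a fold limit of 1.5, where 9.26% of all genes tested were called. In PANC-1 cells, the call of PTGES was lost, leaving 0 members, with an assumed coefficient of variation of 0.2 or 0.4 and with halved counts, where 0.679%, 0.066% and 3.42% of all genes were called. Under all other alternatives run, the number of members called was 0 in SW1990 and 1 in PANC-1 cells. Over both lines, DESeq2's Wald test called 1 member (PTGES) in place of 0. Between the lines, 8 of 9 members passed (44.4% of all genes), 6 of 10 without a filter on low counts (PTGES2 and PLA2G6 lost, 20.2% of 30227 genes) and 7 of 9 with limma on FPKM values (PTGS1 lost, 45.6% of all genes). For single members, 26 alternative values moved beyond the counting interval or, between the lines, beyond the SD of the differences in the unirradiated and irradiated pairs (for PTGS1 its counting interval), and 95 did not, and no called value changed sign. The values within the pairs are counted among these alternatives although they set that limit, so the 95 overstates how little moved. Where the pairs lay far apart, as for PTGS2, the limit was wide. With FPKM values, the log2 change in SW1990 cells moved from 0.16 to -0.65 for HPGD and from -0.06 to -0.24 for PTGES2 (pseudocount 0.1), and from 0.73 to 0.40 for PTGS2 (pseudocount 1). In PANC-1 cells it moved, at a pseudocount of 0.1, from 0.72 to 0.23 for PLA2G6, from 0.58 to 0.89 for PTGES3 and from 0.07 to 0.29 for PTGES2. The log2 difference between the lines moved, at a pseudocount of 1, from 5.01 to 0.35 for PTGS1, from 4.81 to 1.54 for PTGS2, from 4.49 to 1.32 for PLA2G4A, from 6.08 to 2.88 for HPGD, from 3.75 to 3.14 for PTGES and from -3.27 to -2.74 for PTGER4, and from 0.54 to 0.74 for PTGES2. A pseudocount of 1 is above the FPKM of several of these genes in PANC-1 cells and by construction lowers such differences. With library totals and no scaling factor, the log2 change of PTGES3 in PANC-1 cells moved from 0.58 to 0.67. In the same setting the log2 difference between the lines moved from 0.54 to 0.70 for PTGES2. It moved from -3.27 to -3.12 for PTGER4 and from 4.49 to 4.65 for PLA2G4A. For PTGS2 and HPGD, with at most 14 counts in PANC-1 cells, the depth limits the size of the ratios, and PTGER2 could not be assessed at this depth.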
